A study of Mus musculus with 71 samples.

Results

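Genes that write and remove DNA methylation were followed in poly(A) RNA-seq of wild-type (WT) R1 mouse embryonic stem cells (mESCs) and of R1 mESCs in which 3 linker histone genes, H1c, H1d and H1e, had been knocked out together (H1-TKO), with 2 libraries per genotype. The 8 genes were taken by symbol from a given list: Dnmt1, Dnmt3a, Dnmt3l, Uhrf1, Tet1, Tet2, Tet3 and Tdg. They are 8 of the 24134 genes with a symbol in the tables. Both genotypes were grown on gelatin in medium with serum and LIF, and the knockout was made by CRISPR/Cas9 with 1 guide that matches all 3 H1 genes, from picked single-cell clones. This follows the study's methods and the labelled source, mouse embryonic stem cells, while a growth note in the labels of the RNA-seq samples names HeLa cells. H3K27me3 ChIP-seq peak lists, 1 per genotype, were used for the chromatin around the same genes.

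DNA methylation in mammals sits mostly on the cytosine of CpG dinucleotides. DNMT3A and DNMT3B place it on unmethylated DNA, DNMT3L is their partner without catalytic activity, and DNMT1 copies it to the new strand after replication, guided by UHRF1, which binds hemimethylated CpG. The TET enzymes oxidize 5-methylcytosine with 2-oxoglutarate and iron, and TDG cuts out the oxidized forms so that base excision repair can restore cytosine. In mESCs TET1 and TET2 are known as the main TET enzymes, while TET3 is known for its work in the zygote and in neurons.

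In H1-TKO mESCs the RNA of Tet2 and of Tet3 was lower than in WT mESCs, by 2.51 times and 2.47 times, and both differences passed the test. No other member could be shown to differ. Dnmt3a, Uhrf1 and Tdg were listed at 0 in every library, Dnmt1 and Tet1 had too few reads to be tested, and the 1 tested accession of Dnmt3l did not pass. Genotypes are named here by the column headings inside the RNA-seq tables (KO and R1). The sample labels of the same 4 libraries name the genotypes the other way round, and by those labels every direction given below would be reversed. The knocked-out genes do not settle it. H1f2 (the gene H1c) had normalized counts of 11.6 and 56.7 in the WT and 18.7 and 7.37 in the H1-TKO libraries, so the genotypes overlap. H1f3 (H1d) had 3.88 and 41.4 against 1.10 and 0, and H1f4 (H1e) had 5.43 and 19.6 against 0 and 2.11. H1f5, which was not targeted, showed a like pattern with 6.21 and 44.7 against 0 and 2.11.

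The 3 TET genes are the members with a single RefSeq accession matched to their symbol, and the DNA just upstream of their starts is shown for its CpG, the dinucleotide in which these enzymes act. Each run is the 250 bases before the RefSeq start (GRCm38.p6), 5′ to 3′ on the strand of the gene, with every CpG in capitals. Each run also has 1 exact site in NCBIM37, the build of the peak lists, and none lies in an exon of its gene there. The Tet2 run is chr3:133544391-133544640, the Tet3 run chr6:83441679-83441928 and the Tet1 run chr10:62887325-62887574, all on the minus strand. In NCBIM37 the Tet2 and Tet3 runs adjoin the 5′ ends of the GENCODE M1 genes, while the Tet1 run, at chr10:62350073-62350322, lies inside the gene, downstream of its 5′ end, so the 3 runs are not alike in place.
Tet2: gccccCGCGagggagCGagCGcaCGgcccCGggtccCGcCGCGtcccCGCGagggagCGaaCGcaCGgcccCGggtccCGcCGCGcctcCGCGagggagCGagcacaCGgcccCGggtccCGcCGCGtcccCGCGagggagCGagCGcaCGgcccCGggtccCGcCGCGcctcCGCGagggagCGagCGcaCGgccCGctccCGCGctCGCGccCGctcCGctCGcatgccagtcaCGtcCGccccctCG
Tet3: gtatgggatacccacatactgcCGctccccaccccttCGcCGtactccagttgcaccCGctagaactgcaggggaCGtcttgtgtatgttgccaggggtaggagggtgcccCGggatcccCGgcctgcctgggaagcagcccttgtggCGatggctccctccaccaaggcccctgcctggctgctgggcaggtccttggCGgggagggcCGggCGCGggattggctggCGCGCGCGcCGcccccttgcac
Tet1: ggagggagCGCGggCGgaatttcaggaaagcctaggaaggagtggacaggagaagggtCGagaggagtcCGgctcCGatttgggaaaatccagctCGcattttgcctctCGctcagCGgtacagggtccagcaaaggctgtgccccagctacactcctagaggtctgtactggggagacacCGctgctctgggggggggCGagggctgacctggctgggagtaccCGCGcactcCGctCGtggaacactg
The Tet2 run holds 51 CpG and is 83.6% G and C, while the Tet3 run holds 17 CpG at 69.6% and the Tet1 run 15 CpG at 62.8%. The motif searched was CG, which reads the same on both strands. Over 32851 RefSeq promoters of the same length the median was 6 CpG and 92.1% held at least 1. At least 51 CpG were found in 0.0670% of them, at least 17 in 23.5% and at least 15 in 27.3%. No methylation was measured on these sequences.

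Tet2 (NM_001040400, NCBIM37 chr3:133126643-133207354, minus strand) codes for a dioxygenase that lacks the CXXC domain of TET1 and TET3. Its normalized count, the reads divided by the size factor of the library, was 1842 and 3384 in WT replicates 1 and 2, against 968.5 and 1022 in H1-TKO replicates 1 and 2. Both WT libraries lay above both H1-TKO libraries, and the WT pair was far apart while the H1-TKO pair was close. The means were 2613 ± 1090 (SD, n = 2) and 995 ± 37.6 (SD, n = 2). These values rest on 2374, 3102, 879 and 970 reads in the same order. The log2 fold change of H1-TKO against WT was −1.33 (SE 0.26, 95% interval −1.94 to −0.72), with an adjusted p of 0.0154 by limma on log2(normalized count + 1). WT replicate 2 stood apart from the other libraries, since 1 unnamed accession took 11.8% of its reads and 1.98% to 2.08% in the others. Without that library the Tet2 log2 fold change was −0.89, and without WT replicate 1 it was −1.77. With 1 WT library left, the spread came from the H1-TKO pair alone, which was close for Tet2. Passing in those fits therefore says little about the gap between the WT libraries. Tet2 passed under all 13 other processings, those fits among them, with a highest adjusted p of 0.0405 by limma.

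Tet3 (NM_183138, NCBIM37 chr6:83312367-83391672, minus strand) codes for the TET enzyme of the oocyte and zygote. Its normalized count was 268.4 and 277.1 in the WT and 139.9 and 86.4 in the H1-TKO libraries. Here the WT pair was close and the H1-TKO pair was apart, and the genotypes did not overlap. The means were 273 ± 6.10 (SD, n = 2) and 113 ± 37.9 (SD, n = 2), from 346, 254, 127 and 82 reads. The log2 fold change was −1.30 (SE 0.28, 95% interval −1.97 to −0.64), with an adjusted p of 0.0213 by limma. The difference rests in part on H1-TKO replicate 2. Without it the log2 fold change was −0.96 and the adjusted p by limma 0.180, so the call was lost, while it was kept under the other 12 processings.

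**Figure D1:**
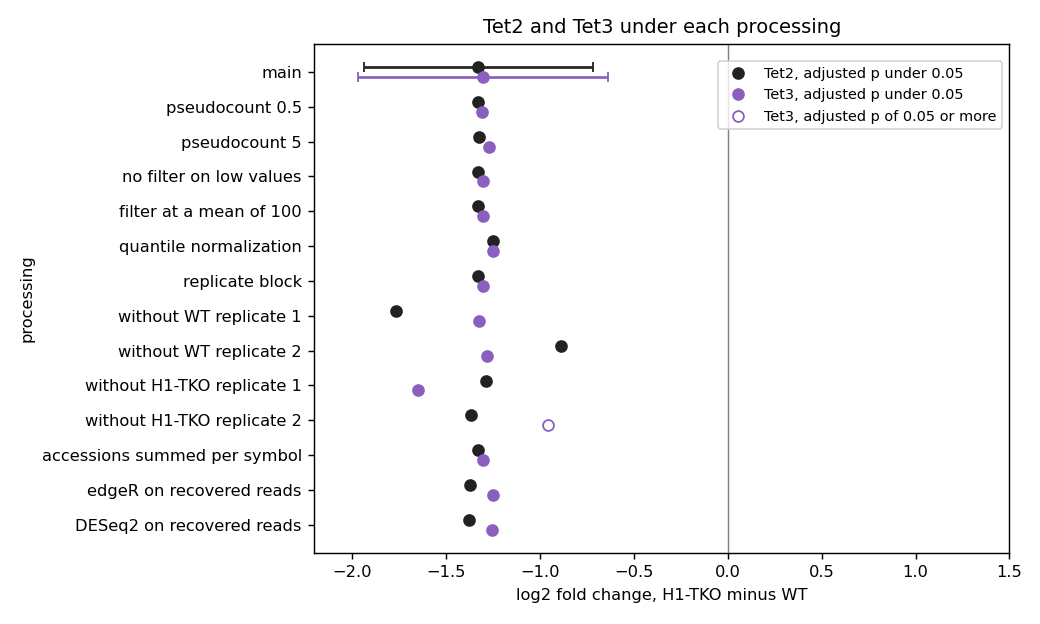
The log2 fold change (H1-TKO minus WT) of Tet2 and Tet3 is on the horizontal axis and each processing of the data is a line, with filled points for an adjusted p under 0.05. Bars on the first line are 95% intervals. All points lie below 0, from −1.77 to −0.89 for Tet2 and from −1.65 to −0.96 for Tet3, and the 1 open point is Tet3 without H1-TKO replicate 2.

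Tet1 (NM_001253857, NCBIM37 chr10:62267318-62361866, minus strand) codes for the TET enzyme that binds CpG islands through a CXXC domain. Its normalized count was 3.10 and 6.55 in the WT and 11.0 and 4.21 in the H1-TKO libraries, from 4, 6, 10 and 4 reads. The genotypes overlap, and the mean was under the minimum of 10 for the test. Such a level is low for a gene known to be expressed in mESCs. Of the 34010 accessions 364 had no symbol, and whether one of them shares exons with Tet1 cannot be told apart here from a low level.

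On the scale per kb of exon the 3 TET genes can be set side by side, with exon lengths from GENCODE M1. Tet2 had 200 and 368 normalized counts per kb in WT, against 105 and 111 in H1-TKO mESCs. Tet3 had 24.2 and 25.0 in the WT and 12.6 and 7.79 in the H1-TKO libraries, below Tet2 in each library. The counted Tet1 accession had 0.211 to 0.749 per kb, with the limit just given on what it holds. In bulk RNA fewer cells with a transcript and less of it per cell cannot be told apart.

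Dnmt3l (NCBIM37 chr10:77504692-77526367, plus strand), the partner of the de novo enzymes, has 6 accessions, of which 4 were listed at 0 in every library. NM_001284198 had normalized counts of 11.6 and 13.1 in the WT and 9.92 and 8.43 in the H1-TKO libraries, from 15, 12, 9 and 8 reads. Both H1-TKO values lay below both WT values, but by less than the error, with a log2 fold change of −0.40 (SE 0.64, 95% interval −1.90 to 1.11) and an adjusted p of 0.683 by limma. The interval holds falls as large as those of Tet2 and Tet3, and rises as well. NM_001081695 had 0 and 7.63 in the WT and 2.2 and 5.27 in the H1-TKO libraries, which overlap. Dnmt3l shares 67 exon bases with Aire on the other strand, and it is not stated whether reads were counted by strand.

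Dnmt1 (NCBIM37 chr9:20711650-20757317, minus strand), the maintenance methyltransferase, has 4 accessions, of which 2 were listed at 0 in every library. NM_001199433 had 8.53 and 12.0 normalized counts in the WT and 9.92 and 6.32 in the H1-TKO libraries. The genotypes overlap, and its mean of 9.19 fell just under the minimum of 10, so it was not tested. NM_001199432 had 1 read, in WT replicate 2.

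Dnmt3a (NCBIM37 chr12:3806007-3914443, 3 accessions), Uhrf1 (NCBIM37 chr17:56442744-56462909, 4 accessions) and Tdg (NCBIM37 chr10:82092573-82113544, 2 accessions), all on the plus strand, were listed at 0 in all 4 libraries at every accession. Dnmt3b, the other de novo enzyme and no member of the group, has 9 accessions, and all were at 0 too. Why they are at 0 was not tested, and the zeros are not read as levels here. The 5 members with several accessions, Dnmt1, Dnmt3a, Dnmt3l, Uhrf1 and Tdg, were all at 0 or had summed normalized counts of at most 20.7. Other well-known mESC genes with several accessions went both ways. Nanog, with 4, was at 0 in all libraries, and Esrrb, with 2, had a normalized count of 3.27 at most, while Pou5f1, with 2, had 2586 to 5110 at 1 of them, Sall4, with 3, a mean of 1020 at 1 accession and Zfp57, with 4, a mean of 976 at 1 accession. In all, 15 of the 22 accessions of the 8 members were at 0 in every library, and 3 accessions, 1 each of Tet2, Tet3 and Dnmt3l, could be tested.

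**Figure D2:**
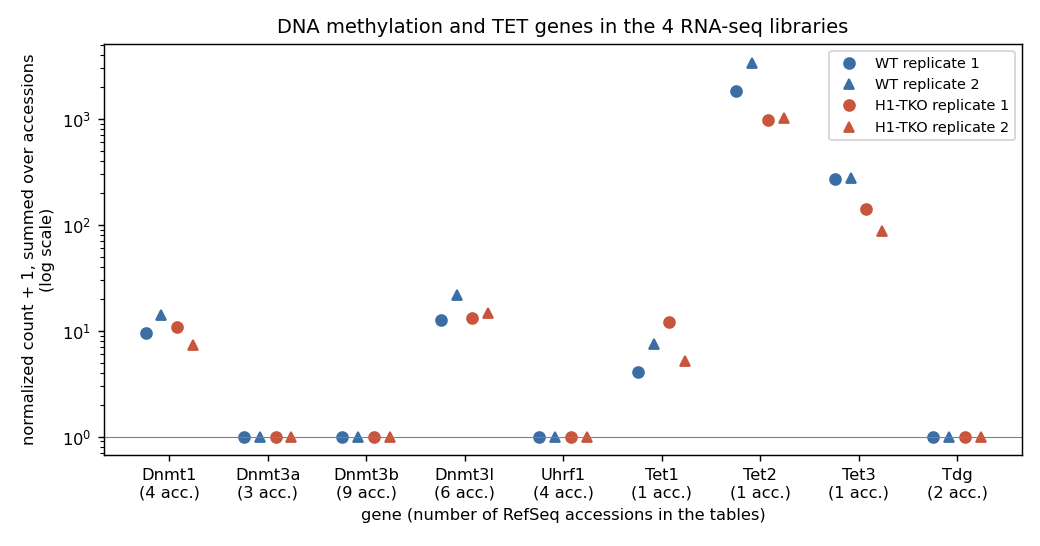
Normalized counts plus 1 (log axis), summed over accessions, for the 8 members and Dnmt3b in each of the 4 libraries, with blue for WT, red for H1-TKO, circles for replicate 1 and triangles for replicate 2. Tet2 and Tet3 are the highest and are lower in both H1-TKO libraries, and Dnmt3a, Dnmt3b, Uhrf1 and Tdg lie on the line of 0 counts.

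The link between zeros and the number of accessions held over all protein-coding genes of the tables. Of the 15560 genes with 1 matched accession, as Tet1, Tet2 and Tet3 have, 15.0% were at 0 in all libraries and 59.5% had a mean normalized count of at least 10. Of the 2655 genes with 2 accessions, as Tdg has, 30.4% were at 0 and 25.2% reached 10. Of the 578 genes with 4, as Dnmt1 and Uhrf1 have, the shares were 37.5% and 21.3%. With 3, as Dnmt3a has, they were 33.4% and 21.5%, and with 6 or more, as Dnmt3l has, 33.8% and 17.8%, so the share at 0 differed mainly between 1 accession and several. Reads in an exon that several accessions share can be left unassigned when they are counted per accession, and the setting for such reads was not stated, so its part in the zeros of the members was not tested.

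Against the background of the comparison, 2 of the 3 tested accessions of the members passed, both lower in H1-TKO mESCs. Over all 11113 accessions tested 20.5% passed, 9.84% higher and 10.7% lower, and the median log2 fold change was −0.03. With 3 accessions nothing can be read from the share. Tet2 and Tet3 lie on chromosomes 3 and 6, whose median log2 fold changes relative to all accessions were 0.01 and 0.07. Some other chromosomes stood further from 0, with 0.52 for chromosome 1 −0.35 for chromosome 11 and −5.59 for chromosome Y, from 5 accessions, on which no member lies.

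Other genes of the pathway were grouped in 8 lists of 88 genes, of which 67 genes with 69 accessions could be tested. In H1-TKO mESCs 6 of these accessions passed as higher and 11 as lower, or 24.6% against 20.5% over all, with a median log2 fold change of −0.13. The adjusted p-values that follow come from the same limma fit. Leaving out H1-TKO replicate 1 left 7 of the lists' accessions past the test and leaving out H1-TKO replicate 2 left 5, while 40 and 34 passed without WT replicate 1 and 2.

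Among the partners of maintenance methylation, which act with DNMT1 and UHRF1 at the replication fork, 8 of 11 genes were tested, with 1 higher, 2 lower and a median log2 fold change of −0.12. Hdac1, a histone deacetylase that binds DNMT1, was 413 and 368 in the WT and 73.8 and 76.9 in the H1-TKO libraries. This was the largest fall among the tested pathway genes, with a log2 fold change of −2.36 (SE 0.22, adjusted p = 0.00232), and it passed under all 13 other processings. Pcna, the sliding clamp that holds DNMT1 at the fork, fell from 1459 and 2198 to 783 and 795, with a log2 fold change of −1.18 (SE 0.20, adjusted p = 0.0104). Uhrf2, the paralogue of Uhrf1, rose from 1006 and 728 to 1599 and 1530, with a log2 fold change of 0.87 (SE 0.18, adjusted p = 0.0176), a call lost when either H1-TKO library was left out. Hells, a chromatin remodeler needed for methylation of repeats, was 5227 and 5046 against 5917 and 5823 and did not pass (log2 fold change 0.19, SE 0.11, adjusted p = 0.230).

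Among the partners and inhibitors of TET 6 of 10 genes were tested, with 0 higher, 3 lower and a median of −0.48. Hcfc1, a cofactor that is processed by OGT, the glycosyltransferase that binds TET proteins, fell from 7668 and 9002 to 4504 and 4354, with a log2 fold change of −0.91 (SE 0.12, adjusted p = 0.00562). Dcaf1, a substrate receptor of the CRL4 ubiquitin ligase that acts on TET proteins, fell from 2391 and 2308 to 1500 and 1575 (−0.61, SE 0.12, adjusted p = 0.0156). Sall4, a zinc finger protein that binds oxidized methylcytosine, fell from 1004 and 1627 to 735 and 714 (−0.82, SE 0.23, adjusted p = 0.0431), and it shares 526 exon bases with Gm14261 on the other strand. Leaving out either H1-TKO library ended the calls of Dcaf1 and Sall4, and leaving out H1-TKO replicate 2 that of Hcfc1 (adjusted p = 0.0620 by limma). Sall4 also failed without a filter on low values (adjusted p = 0.0904 by limma), and its log2 fold change ran from −1.17 to −0.47 when 1 library was left out.

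In base excision repair, which follows TDG, 14 of 15 genes were tested, with 2 higher, 1 lower and a median of 0.13. Neil2, a glycosylase for oxidized bases, rose from 130 and 98.2 to 261 and 277 (log2 fold change 1.24, SE 0.24, adjusted p = 0.0154). Parp1, a sensor of strand breaks, rose from 11080 and 10630 to 15780 and 16120 (0.56, SE 0.10, adjusted p = 0.0137), and it lies on chromosome 1, whose median was 0.52. Apex1, the endonuclease for abasic sites, fell from 597 and 819 to 345 and 340 (−1.03, SE 0.20, adjusted p = 0.0145), and it shares 877 exon bases with Tmem55b on the other strand. These 3 calls were lost when either H1-TKO library was left out.

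In the supply of S-adenosylmethionine, the methyl donor, and of 2-oxoglutarate, the TET cosubstrate, 14 of 17 genes were tested at 15 accessions, with 1 higher, 2 lower and a median of −0.29. Mat2a, which makes S-adenosylmethionine, fell from 3484 and 4502 to 2487 and 2492 (−0.67, SE 0.15, adjusted p = 0.0219). Ahcyl1, a relative of the S-adenosylhomocysteine hydrolase, rose from 2236 and 1570 to 2924 and 2838 (0.62, SE 0.18, adjusted p = 0.0470). Mat2a and Ahcyl1 did not pass when either H1-TKO library was left out, and they also failed without a filter on low values (adjusted p = 0.0501 and 0.0940 by limma). Ahcyl1 failed with edgeR as well (adjusted p = 0.0513), and its log2 fold change ran from 0.37 to 0.88 when 1 library was left out.

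Among regulators of the Dnmt3 genes and of CpG protection 10 of 10 genes were tested at 11 accessions, with 0 higher, 3 lower and a median of −0.16. Kdm2b, which keeps CpG islands free of methylation, fell at its main accession from 498 and 411 to 108 and 156 (−1.80, SE 0.25, adjusted p = 0.00594), and it shares 206 exon bases with A930024E05Rik and Orai1. Dppa2, which guards bivalent promoters from methylation, fell from 553 and 1054 to 307 and 265 (−1.42, SE 0.30, adjusted p = 0.0184). Setd2, which places H3K36me3, a mark read by DNMT3 enzymes, fell from 3125 and 2668 to 2076 and 1977 (−0.51, SE 0.13, adjusted p = 0.0342). Setd2 lost its call when either H1-TKO library was left out, without a filter on low values (adjusted p = 0.0696 by limma) and with quantile normalization (0.0513), while Kdm2b and Dppa2 kept theirs under all 13 other processings.

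Of the methyl-CpG readers 4 of 7 genes were tested and 0 passed, with a median of −0.38 and, nearest to the threshold, Zbtb38 (−0.70, SE 0.21, adjusted p = 0.0509). Of the other methyltransferases only Trdmt1, an RNA methyltransferase of the DNMT family, was tested, and it did not pass (0.30, SE 0.26, adjusted p = 0.443).

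Germline genes that are known to be kept silent by promoter methylation were the 8th list, with 10 of 15 tested, 2 higher, 0 lower and a median of 0.79. Over all accessions tested 9.84% passed as higher and 10.7% as lower, and with 10 genes little can be read from the count. The tested genes ran from 2.33 and 4.36 (Tex13b) to 214 and 1020 (Tuba3a) in the WT libraries, so not all were silent there. Tex13b, a germ cell gene, was at 2.33 and 4.36 in the WT and 216 and 265 in the H1-TKO libraries (log2 fold change 5.83, SE 0.47, adjusted p = 0.00142). Mael, a piRNA pathway gene, rose from 144 and 202 to 375 and 454 (1.27, SE 0.24, adjusted p = 0.0137), lies on chromosome 1 and lost its call without H1-TKO replicate 2. The 8 that did not pass had log2 fold changes from −0.60 (Tuba3a) to 2.01 (Brdt, SE 0.65, adjusted p = 0.0674). Dazl was too low to be tested, with no more than 2.18 in any library.

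Some cell type markers differed between the genotypes too, in both directions, and their part in the results on Tet2 and Tet3 was not tested. Over all accessions tested 20.5% passed, and with so few markers little can be read from their counts. Of the pluripotent cell markers 8 of 10 were tested, with 3 higher (Klf4, Sox2, Dppa5a), 1 lower (Tdgf1) and a median log2 fold change of 0.32. Leaving out WT replicate 1 gave Klf4 a log2 fold change of 0.76 and leaving out WT replicate 2 gave 2.14, and Klf4 lost its call with edgeR, with DESeq2 and without a filter on low values, with a highest adjusted p of 0.136 by DESeq2, and Dppa5a and Tdgf1 lost theirs when either H1-TKO library was left out. Tdgf1 also failed without a filter on low values (adjusted p = 0.0679 by limma) and with quantile normalization (0.0531). Pou5f1 was 2642 and 5110 against 2586 and 2908 at its main accession. Nanog was at 0 in all libraries and Esrrb at 3.27 at most, with the limit given above for genes with several accessions. Of the markers of differentiated or feeder cells 6 of 12 were tested, with Thy1 higher, Col1a1 lower and a median of −0.81, and 2 were at 0 in every library. Col1a1 failed without H1-TKO replicate 1 (adjusted p = 0.0577 by limma). Linker histone genes that had not been targeted also differed, with H1f0 (log2 fold change 1.98, SE 0.16, adjusted p = 0.00142) and H1f10 (1.63, SE 0.20, adjusted p = 0.00436) higher, and H1f1 and H1f5 not past the test.

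H3K27me3, the mark of Polycomb repressive complex 2, was listed within 10 kb of 2 of the 8 members, Dnmt3a and Tet3, in both lists. Over 22194 protein-coding genes of GENCODE M1 the share with such a peak was 21.3% in the WT and 19.6% in the H1-TKO list, so the members lie near the background. Within 2 kb of a start 1 member, Dnmt3a, had a peak in each list, against 14.4% and 13.1% of all genes. The WT list has 6957 peaks and the H1-TKO list 6262, with median MACS scores of 78.8 and 76.2 (the score grows as the p-value of a peak falls). At Dnmt3a the WT list has a peak at chr12:3805149-3805498, which ends 509 bp upstream of the nearest annotated start (score 54.1). The H1-TKO list has a peak at chr12:3805642-3806241 that covers a start (score 72.4), and one inside an intron at chr12:3817661-3817863 (score 60.3). The WT and H1-TKO peaks at the start do not overlap, and all 3 scores lie below the medians of their lists.

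At Tet3 the WT list has peaks at chr6:83369126-83370204 (score 53.1) and chr6:83370369-83371208 (score 50.1), and the H1-TKO list has 1 peak that overlaps both, at chr6:83369956-83371694 (score 64.5). All 3 lie in an intron, and none comes nearer than 19975 bp to an annotated start. Tet3, lower in H1-TKO mESCs, had a listed peak in both genotypes, and Tet2 had none within 10 kb of the gene in either. Dnmt1, Dnmt3l, Uhrf1, Tet1 and Tdg had none as well. Dnmt3b had a peak in the H1-TKO list alone, at chr2:153473350-153474781 (score 95.1), 405 bp from the nearest start. With 1 list per genotype there is no replicate check, an unlisted peak is not an absent mark, and scores were not scaled between the libraries.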

How the data were processed

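The authors aligned the poly(A) RNA-seq read pairs by Subread (mm9 annotation), counted unique alignments with featureCounts per RefSeq accession and divided the counts by DESeq2 size factors. The deposited signal is this normalized count. Every value (100%) was a whole multiple of 1 read within 0.01, which gave 10538507 and 8292007 reads for WT and 6951619 and 7346122 for H1-TKO. The deposited peak score is that of MACS, called by the authors on bowtie2 alignments to mm9. Symbols came from a RefSeq table of GRCm38.p6, and gene positions from GENCODE M1.

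Accessions with a mean of at least 10 were tested, two-sided, by limma 3.58.1 (R 4.3.3, eBayes with trend) on log2(normalized count + 1), which understates changes of low genes, with Benjamini-Hochberg adjustment over 11113 accessions and a threshold of 0.05. edgeR 4.0.16 and DESeq2 1.42.0 on the recovered reads, other pseudocounts, filters and scalings, a replicate block and each library left out were alternatives. The limma step was tested on simulated data with the same spread in all libraries. The real WT and H1-TKO pairs differ in spread, so that test does not bear on the calls made here. A peak counted at a start if it came within 2 kb. The study describes the replicates as duplicates and as biologically independent samples, and p-values measure the spread between these libraries. How many H1-TKO clones they come from was not stated, so loss of H1 and a difference between clones cannot be told apart. Both pairs differed beyond sampling noise, the WT pair more (mean chi-square per accession 102.0, median 5.96) than the H1-TKO pair (mean 3.49, median 1.44). The medians lie much closer together than the means. Intervals cover the spread between libraries under the model.

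The members and lists were chosen with earlier results of these data known. Named were all members, Dnmt3b, linker histone genes and, per list, up to 4 genes in each direction with the largest change past the threshold without overlap, except that 1 such gene is not reported here. Hells, Trdmt1, Zbtb38, Brdt, Tuba3a, Dazl, Nanog, Esrrb, Zfp57 and Pou5f1 were named after their values were seen. ChOR-seq and the engineered lines were not used here.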

Additional observations from a re-analysis of the deposited data

How the results depend on the processing

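Among the 28 fitted changes of named genes, 324 of 363 comparisons with another processing kept their direction and their side of the threshold, 39 kept the direction without passing, and 0 reversed. Of the members, Tet2 passed throughout, Tet3 failed without H1-TKO replicate 2 and Dnmt3l passed in none. The number of members that passed (2) ran from 1 to 2 when a library was left out. The accessions that passed (2282, of them 1094 higher and 1188 lower) fell to 1321, with 624 higher and 697 lower, without a filter on low values, and leaving out a library gave 585 to 5468, with 199 to 2682 higher and 386 to 2786 lower. The high counts came without a WT library (5468 without replicate 1, 4950 without replicate 2) and the low ones without an H1-TKO library (603 and 585), since the spread then comes from the other pair alone, and the lone library is assumed to vary like it. The pathway accessions that passed (17) ran from 5 to 40 in the same way. With a replicate block 1521 accessions were higher and 1778 lower, and Tet2 and Tet3 still passed. Whether the replicate numbers pair the samples was not stated, and the deviations of same-numbered libraries correlated at 0.011. With peak scores of at least 100, 0 members had a peak at a start in the WT list and 0 in the H1-TKO list, against 1 in each. The precision for Tet1, Dnmt1 and Dnmt3l is limited by their 15 reads or fewer per accession and library, and why they have few was not tested.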
